A study of Homo sapiens with 12 samples.

Results

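The genes described here are the expressed long intergenic noncoding RNAs (lincRNAs) of HCT116 cells, an established human colon cancer line. They were taken as every symbol made of LINC and a number, together with LNCAROD, that had an FPKM (a fragment count set relative to gene length and to the library total) of at least 1 in 3 or more of 12 libraries. This level was met by 107 of 978 such symbols in the deposited table, which is 10.9%, and by 13728 of all 36615 symbols, which is 37.5%. The poly(A) RNA came from 4 groups of 3 libraries. They were HCT116 p53-/- cells depleted of Mina53 (KD), p53-/- cells with a scrambled control (SCR), HCT116 p53+/+ cells depleted of Mina53 and p53+/+ cells with the scrambled control. Mina53 is the product of RIOX2, a JmjC-domain oxygenase of the nucleolus that hydroxylates a ribosomal protein. The sources used here give neither the depletion reagent nor the number of clones behind each line, nor whether replicates were separate cultures. The p-values set group differences against the spread among these libraries. That spread may be only technical, so the p-values may be too small for a statement about the lines.

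As background, lincRNAs are transcribed by RNA polymerase II, are mostly spliced and polyadenylated, and do not carry a long open reading frame. Most are kept at low levels and in few cell types, some act on the expression of neighbouring genes, some bind proteins or microRNAs, and a few hold short frames that are translated into micropeptides. The p53 protein is a transcription factor whose direct targets include several noncoding RNAs. The name intergenic was checked against annotation. All 106 of the 107 genes found in the RefSeq table were of the lncRNA class, 102 by symbol and 4 through an older symbol, but the gene bodies of 56 overlapped another gene and those of 13 a coding gene. Of 104 genes matched to GENCODE 29, 78 were typed as lincRNA and 7 as transcribed unprocessed pseudogenes, and 1 as protein-coding. Their longest transcripts had a median of 1964 bases (range 370 to 16489) and a median of 3 exons, and 13 genes had 1 exon. The counting method is not given in the sources used here, so values of genes that overlap another gene, or share a stretch with a near-identical copy, are uncertain. Such a stretch of at least 300 bases at 97% identity or more was found for 15 genes, among them LINC00265, LINC00431, LINC01002, LINC01106 and LINC01719. Only the 104 genes matched to GENCODE 29 were searched, which leaves out LINC00673, LINC01000 and LINC01061.

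RefSeq (GRCh38.p14) holds a promoter, 250 bases before to 50 after the gene start, for 74 of the 107 genes. The files use hg19, so the positions belong to the reference and not to the deposited values. The first 3 promoters below belong to genes that were lower or higher in the depleted cells of both lines, LNCAROD (chr10:52470484-52470783, minus strand), LINC01234 (chr12:113773634-113773933, minus strand) and LINC00888 (chr3:183447358-183447657, plus strand). The last, of LINC02458 (chr12:89019643-89019942, minus strand), belongs to a gene that reached 1 FPKM in p53+/+ libraries and in no p53-/- library. Capitals mark matches to the motifs searched on both strands, namely AP-1 (TGANTCA), the E-box (CACGTG), the CCAAT box (CCAAT), the TATA box (TATAAA) and the p53 response element, for which up to 2 mismatches and a spacer of up to 13 bases were allowed. Motifs could overlap each other.
LNCAROD: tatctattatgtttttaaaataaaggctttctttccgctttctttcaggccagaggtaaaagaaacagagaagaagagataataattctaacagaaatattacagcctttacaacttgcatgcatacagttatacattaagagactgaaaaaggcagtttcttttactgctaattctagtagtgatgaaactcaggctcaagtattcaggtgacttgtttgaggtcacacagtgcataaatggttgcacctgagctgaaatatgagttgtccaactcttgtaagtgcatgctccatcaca
LINC01234: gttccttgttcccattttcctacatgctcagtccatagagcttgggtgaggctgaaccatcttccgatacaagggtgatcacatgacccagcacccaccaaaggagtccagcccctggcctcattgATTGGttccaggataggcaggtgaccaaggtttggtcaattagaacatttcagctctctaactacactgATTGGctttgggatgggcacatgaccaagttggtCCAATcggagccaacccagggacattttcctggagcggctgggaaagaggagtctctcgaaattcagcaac
LINC00888: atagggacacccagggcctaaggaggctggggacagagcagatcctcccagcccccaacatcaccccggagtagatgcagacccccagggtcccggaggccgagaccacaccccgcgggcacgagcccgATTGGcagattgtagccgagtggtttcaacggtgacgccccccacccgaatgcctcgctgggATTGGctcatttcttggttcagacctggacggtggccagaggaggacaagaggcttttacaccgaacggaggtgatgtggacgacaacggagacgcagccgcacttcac
LINC02458: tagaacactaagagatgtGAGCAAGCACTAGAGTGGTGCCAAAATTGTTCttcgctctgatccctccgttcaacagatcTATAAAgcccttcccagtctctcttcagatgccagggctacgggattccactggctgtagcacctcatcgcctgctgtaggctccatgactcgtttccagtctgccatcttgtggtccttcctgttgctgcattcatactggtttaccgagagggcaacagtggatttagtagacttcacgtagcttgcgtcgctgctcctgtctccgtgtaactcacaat
The LNCAROD window holds none of the 5 motifs. The LINC01234 and LINC00888 windows hold CCAAT boxes, in LINC01234 on both strands and in LINC00888 on the minus strand (ATTGG as printed). The LINC02458 window holds a p53 element with 2 mismatches, whose spacer is printed in capitals too, and a TATA box. A p53 element of this kind lay in 4 of 74 promoters of these genes, 5.41%, and in 7.82% of the 35116 promoters of the table, and the 4 were LINC02458, LINC00938, LINC02323 and LINC01426. The CCAAT box was present in 40.5% of these promoters and 34.6% of all, AP-1 in 10.8% and 7.71%, the E-box in 8.11% and 7.26%, and the TATA box in 9.46% and 11.5%. The 8 promoters with AP-1 include those of LINC01002, LINC01061 and LINC01001, which are near-identical in sequence and share their AP-1 and CCAAT matches. They were counted separately, so the AP-1 share is raised by copies. These matches are letters in a window and were not tied to binding.

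The lincRNAs were low. Their means over 12 libraries ran between 0.537 and 9.05 FPKM with a median of 1.83, against a median of 6.67 for all symbols that met the same level. Of the 107 genes, 8 had a mean of at least 5 FPKM, 44 of at least 2, and 63 lay under 2. In all 12 libraries 49 were at 1 FPKM or more, 8 reached 1 in libraries of 1 group, and 18 reached 1 in 1 cell line, 10 in p53-/- and 8 in p53+/+ cells. The values just inside the level belonged to LINC01426, LINC02321 and LINC00326, whose values in the library that decided membership were 1.0, 1.02 and 1.03 FPKM. LINC00618, LINC02593 and LINC01137 lay just outside, at 0.994, 0.987 and 0.979 FPKM. Replicates of these genes had a median coefficient of variation within groups of 14.2%, against 6.50% for all genes tested. The 2 sets were not matched for level, so the part of low level in this difference was not tested.

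**Figure D1:**
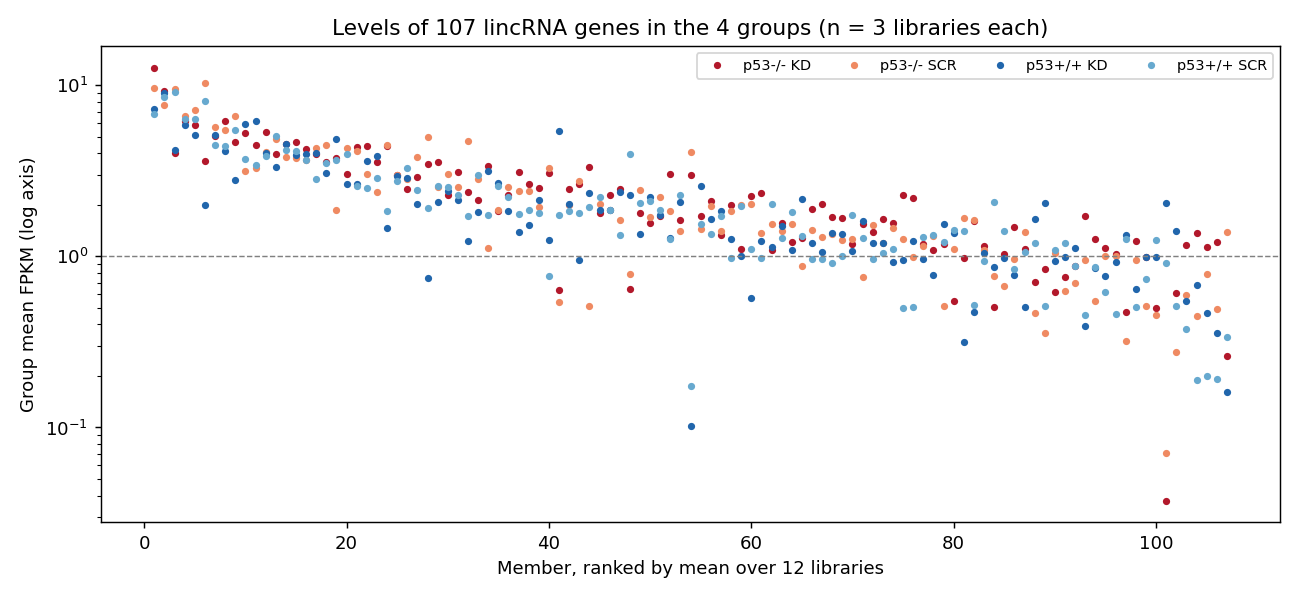
Group mean FPKM (log axis, n = 3 libraries per group) of the 107 lincRNAs, ranked by their mean over 12 libraries, with the 4 groups in colour and a dashed line at 1 FPKM. Most means lie between 0.5 and 5 FPKM, and the groups part by more than 10-fold for LINC02313, LINC01694 and LINC01405.

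LINC00673, reported elsewhere to promote turnover of the phosphatase PTPN11, had the highest mean. It had 12.7, 12.1 and 13.2 FPKM in p53-/- KD cells and 9.61, 9.87 and 9.31 in p53-/- SCR cells, against 7.41, 6.72 and 7.54 in p53+/+ KD and 6.92, 6.66 and 6.64 in p53+/+ SCR cells. Every p53-/- library lay above every p53+/+ library. LINC02210, which overlaps the read-through gene LINC02210-CRHR1, followed with group means of 9.19 ± 0.628 FPKM in p53-/- KD, 7.69 ± 0.923 in p53-/- SCR, 8.92 ± 1.55 in p53+/+ KD and 8.49 ± 2.0 in p53+/+ SCR cells (SD, n = 3 each), which did not differ beyond their spread. LINC01184, LINC01000, LNCAROD, LINC01234, LINC00839 and LINC00513 were the other genes among the 8 highest, with means of 6.21, 6.12, 5.98, 6.69, 5.07 and 5.02 FPKM. Within single groups the order moved: LNCAROD had 10.3 ± 0.734 FPKM in p53-/- SCR cells, the highest mean of any lincRNA in that group, and 2.0 ± 0.391 in p53+/+ KD cells (SD, n = 3 each).

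Over the 4 groups, the highest mean was found in p53-/- KD cells for 44 genes, in p53-/- SCR cells for 27, in p53+/+ KD cells for 19 and in p53+/+ SCR cells for 17. The highest group mean exceeded the lowest by a median of 1.88-fold, by at least 2-fold for 46 genes and by at least 4-fold for 20. These counts were not made over all genes tested, so they are a description and no result about the lincRNAs. The level rule also favours such gaps, since 19 of the 107 met it only through 1 group and 33 only through 1 line.

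The depletion labels were checked on RIOX2, which averaged 2.02 ± 0.242 FPKM in p53-/- KD and 9.09 ± 0.211 in p53-/- SCR cells, and 2.72 ± 0.291 in p53+/+ KD and 7.49 ± 0.252 in p53+/+ SCR cells (SD, n = 3 each). At least 1 FPKM in 3 libraries was reached by 6 of 9 colon epithelial markers (EPCAM, CDH1, KRT8, KRT18, KRT19 and CDX2), 1 of 4 fibroblast markers (COL1A1), 1 of 4 immune markers (CD68), 2 of 4 neuronal markers (SYT1 and TUBB3), none of 4 endothelial and none of 3 liver markers. Mitochondrially encoded genes took 15.5% of summed FPKM in p53-/- KD and 11.5% in p53-/- SCR cells, and 20.3% in p53+/+ KD and 15.1% in p53+/+ SCR cells. The part of this shift in the results below was not tested, apart from the scaling alternatives. All 978 LINC symbols together held 0.0956% ± 0.00107 of summed FPKM in p53-/- KD and 0.0910% ± 0.00379 in p53-/- SCR cells (SD, n = 3 each, two-sided exact permutation p = 0.2). They held 0.0792% ± 0.00196 in p53+/+ KD and 0.0798% ± 0.00247 in p53+/+ SCR cells (SD, n = 3 each, two-sided exact permutation p = 0.9). The smallest p this design allows is 0.1. Without mitochondrial genes in the sum, the difference in p53-/- cells was 0.0103 percentage points in place of 0.00461, and that in p53+/+ cells 0.00526 in place of -0.000684 (exact permutation p = 0.1 in each). In bulk RNA, fewer cells with a transcript and less of it per cell cannot be told apart.

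The 4 comparisons were then made with limma on log2(FPKM + 1), a scale that understates changes of low genes, with Benjamini-Hochberg adjustment over all 13728 genes and a threshold of 0.05. Every adjusted p below comes from this fit. The genotype comparison shares its SCR libraries with the depletion comparisons. In p53-/- cells depletion raised 30 of 107 lincRNAs (28%; 28.9% of all genes tested) and lowered 19 (17.8%; 29.9% of all). In p53+/+ cells it raised 21 (19.6%; 28.5% of all) and lowered 21 (19.6%; 32.2% of all). The median log2 change of the lincRNAs was 0.10 in p53-/- and 0.04 in p53+/+ cells, against -0.003 and -0.02 for all genes. The shares called were thus at or under the background in each direction, and the standard errors were wider, with a median of 0.101 against 0.069 for all genes. In both lines 12 were higher (11.2%; 18.5% of all genes) and 11 lower (10.3%; 20.7% of all genes), 2 were called in opposite directions (3.71% of all genes), and 81 had fitted changes of the same sign (75.7%; 74.3% of all genes). None of the comparisons called 25 of the genes (23.4%; 11.6% of all genes), and 7 were called in all 4 (6.54%; 12.1% of all genes). Without 1 of the 4 groups 19 members would miss the level rule, so a comparison of that group is drawn from the rule. They made up 7 of the 30 and 1 of the 19 calls in p53-/- cells, and 3 of the 21 higher and 1 of the 21 lower calls in p53+/+ cells.

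LNCAROD had the most negative fitted change of the lincRNAs in p53-/- cells on the log2(FPKM + 1) scale. The low LINC00326, given below, kept a smaller share of its control there. LNCAROD is a chromatin-associated RNA known in breast cancer cells to activate the nearby gene DKK1, which encodes a secreted Wnt inhibitor. LNCAROD had 3.35, 4.22 and 3.28 FPKM in p53-/- KD cells, against 9.67, 10.1 and 11.1 in p53-/- SCR cells, and 2.07, 2.35 and 1.58 FPKM in p53+/+ KD cells, against 7.91, 8.60 and 7.59 in p53+/+ SCR cells. The groups did not overlap in either line. In p53-/- cells LNCAROD fell to 35.2% of control, a log2 change of -1.29 ± 0.101 (SE, adjusted p = 4.73e-07). In p53+/+ cells its mean was 24.9% of control, a description only, since its level in this contrast is the reason it was named among these genes. The 21 lower calls in p53+/+ cells and the 11 genes lower in both lines include LNCAROD, which entered them by that choice. DKK1, looked up because of that known role and outside the naming rule, had 49.2, 52.1 and 46.6 FPKM in p53-/- KD cells, against 136.6, 141.1 and 145.9 in p53-/- SCR cells. In p53+/+ cells it had 42.2, 44.1 and 41.9 FPKM with depletion, against 108.8, 109.3 and 107.6 in the control. The log2 change of DKK1 was -1.50 ± 0.041 (SE, adjusted p = 9.16e-11) in p53-/- cells and -1.32 ± 0.041 (SE, adjusted p = 2.12e-10) in p53+/+ cells. LNCAROD and DKK1 were thus both lower, and whether they are linked was not tested. No coding gene lay within 100 kb of LNCAROD by RefSeq positions, so this pair is not among the neighbour pairs below.

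LINC01234, which holds the reading frame of a micropeptide reported in colorectal cancer, fell by nearly the same proportion in both lines. It had 3.94, 4.59 and 3.50 FPKM in p53-/- KD cells, against 10.5, 9.0 and 8.90 in p53-/- SCR cells, and 3.96, 4.39 and 4.10 in p53+/+ KD cells, against 9.54, 9.11 and 8.79 in p53+/+ SCR cells. Depletion left 42.3% of the control level in p53-/- cells (log2 change -1.07 ± 0.082, SE, adjusted p = 3.80e-07) and 45.4% in p53+/+ cells (-0.98 ± 0.082, SE, adjusted p = 6.57e-07). The difference between those effects was -0.09, with a 95% interval from -0.34 to 0.16. The control cells of the 2 lines differed by 0.04 (95% interval -0.14 to 0.22). No library of a depleted group came near a control library.

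The other genes that fell in both lines did so by less on the log2(FPKM + 1) scale. LINC00467, whose transcript encodes a micropeptide of the ATP synthase in colorectal cancer, had 5.52, 4.89 and 3.62 FPKM in p53-/- KD cells, against 5.17, 6.58 and 8.15 in p53-/- SCR cells. The p53-/- groups overlapped, and the change of -0.42 ± 0.154 (SE, adjusted p = 0.0325) lost its call without KD replicate 3, SCR replicate 2 or SCR replicate 3, with adjusted p values up to 0.139. In p53+/+ cells LINC00467 had 2.90, 2.49 and 3.02 FPKM with depletion, against 5.82, 6.0 and 4.46 in the control, a change of -0.75 ± 0.154 (SE, adjusted p = 0.00108). LINC00339, a neighbour of WNT4 and CDC42 known from studies of bone density, averaged 3.02 ± 0.489 FPKM in p53-/- KD and 4.29 ± 0.257 in p53-/- SCR cells, and 2.63 ± 0.152 in p53+/+ KD and 3.95 ± 0.066 in p53+/+ SCR cells (SD, n = 3 each). It fell by 0.40 and 0.45 on the log2 scale in p53-/- and p53+/+ cells. LINC01000 fell by 0.26 in p53-/- and 0.27 in p53+/+ cells, leaving 81.3% and 80.2% of the control. LINC00431, LINC00938, LINC00847, LINC01515, LINC00941 and LINC01719 completed the 11, the last of them inside the level rule through 1 group. Of these LINC01515 fell to the smallest share of its control in p53+/+ cells, 22.4%, under the shares of LNCAROD and LINC01234, at 0.315 ± 0.103 FPKM against 1.41 ± 0.189 in SCR cells, and to 0.980 ± 0.210 FPKM in p53-/- KD cells against 1.68 ± 0.197 in SCR cells (SD, n = 3 each).

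**Figure D2:**
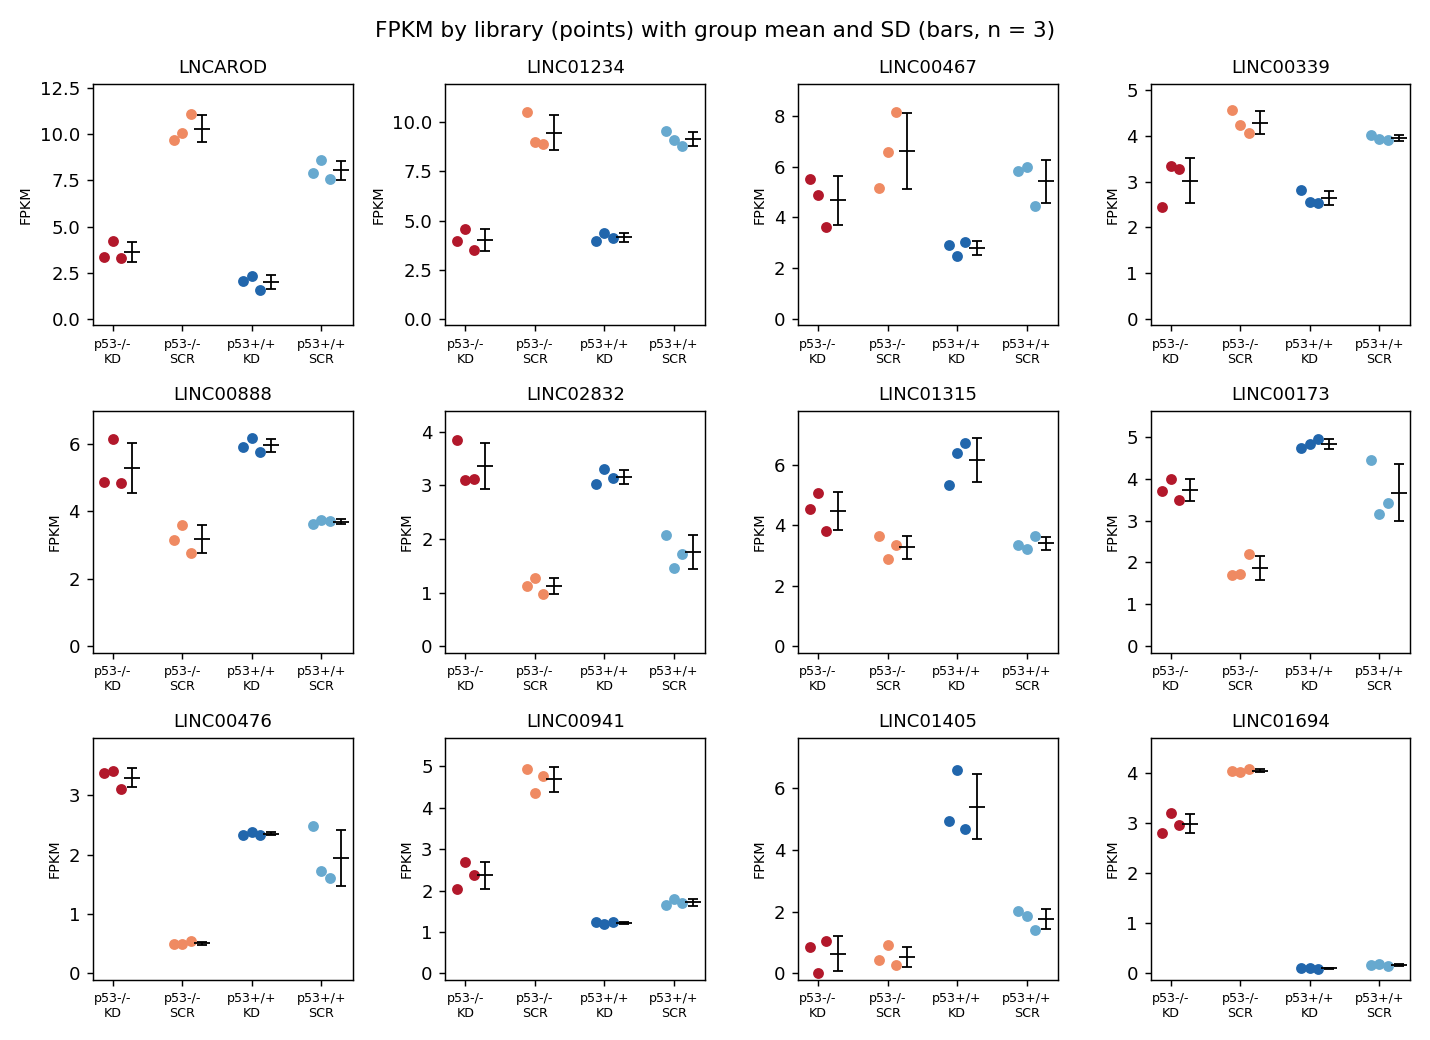
FPKM of 12 lincRNAs in every library (points), grouped from left to right as p53-/- KD, p53-/- SCR, p53+/+ KD and p53+/+ SCR, with the group mean and SD (bars, n = 3). LNCAROD and LINC01234 lie under 5 FPKM in every depleted library and above 7 in every control library, and LINC00476 lies near 0.5 FPKM in the p53-/- controls.

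Among the 12 genes that rose in both lines, LINC00888 had the closest match of effects. It is now named SNHG33 and hosts small nucleolar RNAs (SNORA63D and SNORA63E lie within it). It had 4.87, 6.14 and 4.82 FPKM in p53-/- KD cells, against 3.15, 3.59 and 2.76 in p53-/- SCR cells, and 5.91, 6.17 and 5.77 in p53+/+ KD cells, against 3.61, 3.73 and 3.72 in p53+/+ SCR cells. Depleted and control libraries did not overlap in either line. The log2 changes were 0.59 ± 0.086 (SE, adjusted p = 8.99e-05) in p53-/- and 0.57 ± 0.086 (SE, adjusted p = 0.000108) in p53+/+ cells. Their difference was 0.02, with a 95% interval from -0.24 to 0.29.

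LINC02832 had 3.85, 3.10 and 3.12 FPKM in p53-/- KD cells, against 1.12, 1.27 and 0.971 in p53-/- SCR cells, a 2.99-fold ratio of means (log2 change 1.04 ± 0.095, SE, adjusted p = 1.80e-06). The values in p53+/+ cells were 3.03, 3.30 and 3.13 FPKM with depletion, against 2.08, 1.45 and 1.73 in the control, a 1.80-fold ratio (0.60 ± 0.095, SE, adjusted p = 0.000149). The depleted cells of both lines thus reached similar levels although their controls differed. LINC00173 reached 3.74 ± 0.257 FPKM in p53-/- KD and 1.87 ± 0.278 in p53-/- SCR cells, and 4.83 ± 0.110 in p53+/+ KD and 3.67 ± 0.683 in p53+/+ SCR cells (SD, n = 3 each), which is a rise of 0.73 and of 0.33 on the log2 scale. The p53+/+ call on LINC00173 was lost without SCR replicate 2 (adjusted p = 0.0540). LINC01315 moved more in p53+/+ cells, to 6.16 ± 0.724 FPKM with depletion and 3.41 ± 0.222 in the control, than in p53-/- cells, at 4.49 ± 0.631 and 3.28 ± 0.383 (SD, n = 3 each), but the difference of effects missed the threshold (-0.34 ± 0.141, SE, adjusted p = 0.0843).

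LINC01012, LINC01270 and LINC00265 rose by 0.43, 0.44 and 0.39 in p53-/- and by 0.40, 0.32 and 0.53 in p53+/+ cells on the log2 scale. In p53+/+ cells the calls on LINC01012 (without SCR replicate 2, adjusted p = 0.0532) and LINC01270 (without KD replicate 2 or 3 or SCR replicate 2 or 3, up to 0.0705) rested on single libraries. LINC02438 and LINC00482 lay lower, at 2.20 ± 0.254 and 1.18 ± 0.156 FPKM in p53-/- KD cells, against 0.987 ± 0.274 and 0.514 ± 0.044 in p53-/- SCR cells (SD, n = 3 each). The p53+/+ call on LINC02438 ended without KD replicate 2 or 3 or SCR replicate 1 or 3 (up to 0.176), and that on LINC00482 without KD replicate 1 or 2 or SCR replicate 1 or 2 (up to 0.107). The remaining 3 of the 12, LINC02846, LINC00622 and LINC01426, reached 1 FPKM in 1 group, and their values are a description. LINC00622 had 1.36 ± 0.145 FPKM in p53-/- KD and 0.446 ± 0.057 in p53-/- SCR cells, and 0.684 ± 0.038 in p53+/+ KD and 0.189 ± 0.065 in p53+/+ SCR cells (SD, n = 3 each).

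Depletion in p53-/- cells moved some lincRNAs that did not pass the threshold in p53+/+ cells. LINC00476, also annotated as ERCC6L2-AS1 because it lies antisense to the gene of the helicase-like protein ERCC6L2, had 3.38, 3.41 and 3.12 FPKM in p53-/- KD cells, against 0.492, 0.499 and 0.539 in p53-/- SCR cells, and 2.34, 2.38 and 2.34 in p53+/+ KD cells, against 2.49, 1.73 and 1.61 in p53+/+ SCR cells. The p53-/- controls stood apart from the other 9 libraries, which lay at 1.61 FPKM or more. Depletion raised LINC00476 6.47-fold in p53-/- cells (log2 change 1.51 ± 0.093, SE, adjusted p = 6.19e-08), and the change in p53+/+ cells was 0.20 ± 0.093 (SE, adjusted p = 0.0802). The difference between the effects was 1.31 ± 0.131 (SE, adjusted p = 2.43e-05). Without a stated strand of counting, its reads and those of ERCC6L2 cannot be told apart where they overlap. ERCC6L2 averaged 2.46 ± 0.154 FPKM in p53-/- KD and 2.37 ± 0.320 in p53-/- SCR cells (SD, n = 3 each). It changed with depletion by 0.04 in p53-/- (adjusted p = 0.639 in limma) and -0.16 in p53+/+ cells (adjusted p = 0.0865 in limma).

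LINC01138, reported elsewhere as bound by IGF2BP1 in liver cancer, had 3.12, 3.04 and 2.91 FPKM in p53-/- KD cells, against 2.10, 1.44 and 1.94 in p53-/- SCR cells, a rise of 0.52 ± 0.113 (SE, adjusted p = 0.00184), while p53+/+ cells averaged 1.27 ± 0.310 with depletion and 1.26 ± 0.218 in the control (SD, n = 3 each). LINC00857 rose by 0.37 ± 0.097 (SE, adjusted p = 0.00589) in p53-/- cells, to 3.53 ± 0.208 FPKM against 2.52 ± 0.462 in SCR cells (SD, n = 3 each). In p53+/+ cells LINC00857 averaged 2.07 ± 0.265 FPKM with depletion and 2.56 ± 0.241 in the control (SD, n = 3 each, adjusted p = 0.0745 in limma). LINC00673 rose by 0.36 ± 0.050 in p53-/- cells (SE, adjusted p = 5.84e-05) and changed by 0.09 ± 0.050 in p53+/+ cells (SE, adjusted p = 0.158). All 3 p53-/- KD libraries exceeded all 3 p53-/- SCR libraries for these genes.

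Among falls in p53-/- cells, LINC00941, an RNA that represses differentiation genes in keratinocytes, had 2.04, 2.69 and 2.37 FPKM with depletion, against 4.93, 4.35 and 4.76 in the control. It fell to 50.6% there (log2 change -0.76 ± 0.073, SE, adjusted p = 2.93e-06). The values in p53+/+ cells were 1.23, 1.19 and 1.23 FPKM with depletion, against 1.64, 1.80 and 1.70 in the control, or 71.1% (-0.29 ± 0.073, SE, adjusted p = 0.00436). The p53-/- KD libraries stayed above every p53+/+ library. LINC01694 had 2.81, 3.20 and 2.97 FPKM in p53-/- KD cells, against 4.04, 4.02 and 4.08 in p53-/- SCR cells (-0.34 ± 0.060, SE, adjusted p = 0.000384), and lay between 0.0963 and 0.194 FPKM in the p53+/+ libraries. LINC01963 averaged 2.88 ± 0.309 FPKM in p53-/- KD and 3.78 ± 0.259 in p53-/- SCR cells, a fall of 0.30 (adjusted p = 0.00741 in limma), and 2.02 ± 0.289 in p53+/+ KD and 2.42 ± 0.119 in p53+/+ SCR cells (SD, n = 3 each). LINC00326, inside the level rule through the p53-/- SCR libraries, had 0.266, 0.308 and 0.212 FPKM in p53-/- KD cells, against 1.03, 1.54 and 1.59 in p53-/- SCR cells, given without a test.

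**Figure D3:**
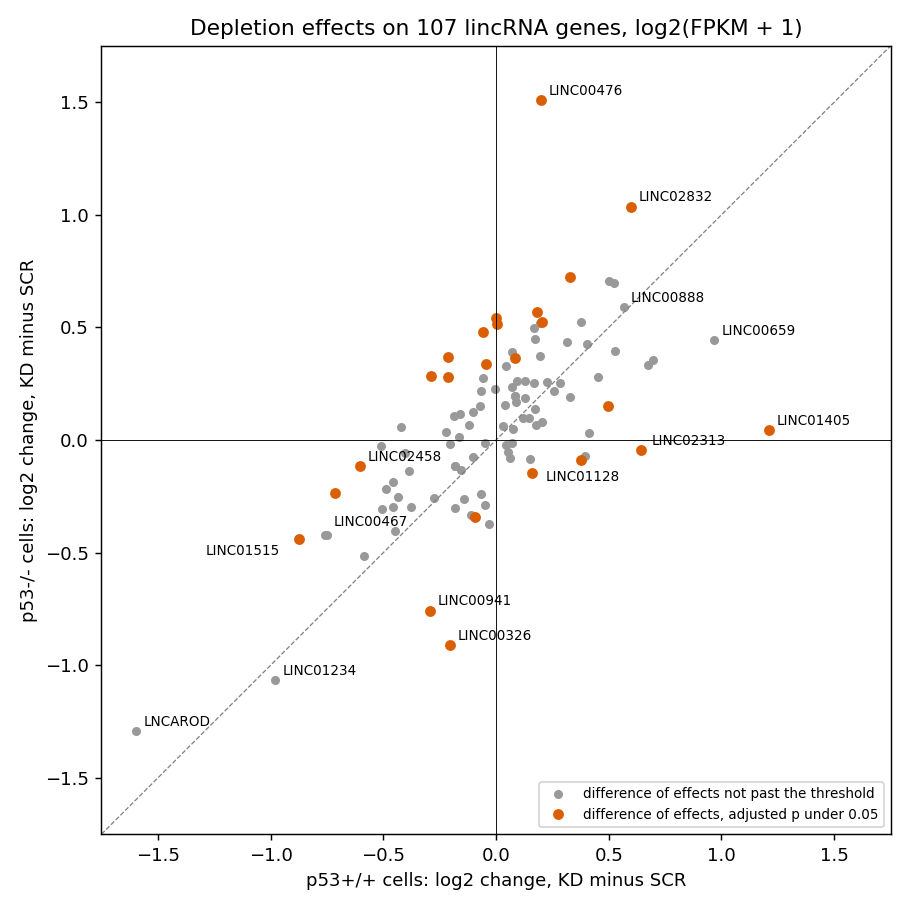
Log2 change with depletion (KD minus SCR, log2(FPKM + 1)) of each of the 107 lincRNAs, in p53-/- cells on the y axis and p53+/+ cells on the x axis, with a dashed line of equal change. LINC01234 and LINC00888 lie on the line, LINC00476 lies far above it at 1.51 and 0.20, and LINC01405 far below it at 0.04 and 1.21. Orange points are members whose difference of effects passed the threshold.

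In p53+/+ cells LINC01405 had the largest rise on the log2(FPKM + 1) scale, a 3.08-fold ratio of means. It had 4.92, 6.60 and 4.67 FPKM in p53+/+ KD cells, against 2.01, 1.85 and 1.39 in p53+/+ SCR cells (log2 change 1.21 ± 0.240, SE, adjusted p = 0.000838, and 0.0787 with a pseudocount of 0.1). In p53-/- cells LINC01405 had 0.856, 0 and 1.05 FPKM with depletion, against 0.433, 0.903 and 0.277 in the control, and these overlapped. LINC00659 had 1.26, 1.77 and 3.10 FPKM in p53+/+ KD cells, against 0.509, 0.628 and 0.401 in p53+/+ SCR cells, a 3.99-fold ratio of means. It is given without a test, since it met the level rule through these KD libraries. Replicates of LINC00659 were wide, and its p53-/- cells, at 0.704, 0.517 and 1.29 FPKM with depletion and 0.228, 0.733 and 0.108 in the control, overlapped. LINC02313 had 1.42, 1.96 and 2.72 FPKM in p53+/+ KD cells, against 0.870, 0.832 and 1.04 in p53+/+ SCR cells and is given without a test, since its KD libraries alone met the level rule, while every p53-/- library lay at 0.171 or under and 3 of them were listed at 0.

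LINC01128 and LINC02700 rose in p53+/+ cells by 0.38 ± 0.060 (SE, adjusted p = 0.00016) and 0.50 ± 0.073 (SE, adjusted p = 7.80e-05). LINC01128 had 4.09, 4.18 and 3.69 FPKM in p53+/+ KD cells, against 2.67, 2.91 and 2.92 in p53+/+ SCR cells, and 3.80, 4.30 and 3.81 in p53-/- KD cells, against 4.28, 4.17 and 4.37 in p53-/- SCR cells. Of its p53+/+ depleted libraries, 2 lay within the range of the p53-/- depleted libraries and 1 lay under it. On the falling side, LINC02458 had 2.76, 2.17 and 1.93 FPKM in p53+/+ KD cells, against 3.95, 3.91 and 4.03 in p53+/+ SCR cells (-0.60 ± 0.0995, SE, adjusted p = 0.000217). The values in p53-/- cells were 0.695, 0.626 and 0.615 FPKM with depletion and 0.795, 0.578 and 0.997 in the control. LINC00847, which overlaps ZFP62, averaged 1.80 ± 0.195 FPKM in p53+/+ KD and 2.98 ± 0.171 in p53+/+ SCR cells, and 2.13 ± 0.552 in p53-/- KD and 2.83 ± 0.273 in p53-/- SCR cells (SD, n = 3 each). LINC00847 fell by 0.51 in p53+/+ cells (adjusted p = 0.00143 in limma) and by 0.31 in p53-/- cells (adjusted p = 0.0283 in limma), a p53-/- call that ended without KD replicate 2 or 3 or SCR replicate 1 or 2 (up to 0.113). ZFP62 fell too, by 0.62 in p53+/+ (adjusted p = 3.22e-06 in limma) and 0.33 in p53-/- cells (adjusted p = 0.000582 in limma). Whether LINC00847 and ZFP62 share reads was not tested. LINC02870 had 1.07, 0.935 and 0.247 FPKM in p53+/+ KD cells, against 2.35, 1.52 and 1.85 in p53+/+ SCR cells (-0.76 ± 0.173, SE, adjusted p = 0.0023).

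The difference of depletion effects, p53-/- minus p53+/+, was tested for each gene. It was higher for 16 lincRNAs (15%; 16.7% of all genes) and lower for 8 (7.48%; 16.2% of all genes), with a median of 0.11 against 0.003 for all genes. This count was the least stable, at 15 with a pseudocount of 0.1, 9 with no filter on low values and 14 without p53-/- KD replicate 1. Of the 24 genes, 7 on the higher and 4 on the lower side would miss the level rule without 1 of the lines. Besides LINC00476, the effect was higher in p53-/- cells for LINC00857 (0.58 ± 0.137, SE, adjusted p = 0.00674), and for LINC00673 (0.28 ± 0.071, SE, adjusted p = 0.011). It was lower for LINC00941 (-0.47 ± 0.104, SE, adjusted p = 0.00496) and for LINC01128 (-0.47 ± 0.085, SE, adjusted p = 0.00153).

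Both genes called in opposite directions were fitted with small changes. LINC00839 had 4.67, 4.98 and 5.47 FPKM in p53-/- KD cells, against 5.91, 5.74 and 5.36 in p53-/- SCR cells, and 5.01, 5.12 and 5.18 in p53+/+ KD cells, against 4.42, 4.35 and 4.63 in p53+/+ SCR cells. The p53-/- groups overlapped, and the p53-/- call (-0.14 ± 0.057, SE, adjusted p = 0.0462) was lost under most of the alternatives, among them leaving out p53-/- KD replicate 1 or 2 or p53-/- SCR replicate 1 or 2 (up to 0.183). The p53+/+ call (0.16 ± 0.057, SE, adjusted p = 0.0285) was lost without p53+/+ KD replicate 2 or 3 or p53+/+ SCR replicate 1 or 2 (up to 0.0852). LINC00997, named after its values were seen, had 1.07, 1.10 and 0.934 FPKM in p53-/- KD cells, against 0.689, 0.737 and 0.590 in p53-/- SCR cells, and 1.08, 0.909 and 0.938 in p53+/+ KD cells, against 1.38, 1.42 and 1.44 in p53+/+ SCR cells. Neither pair of LINC00997 groups overlapped, and the depleted libraries of both lines lay near 1 FPKM (difference of effects 0.57, given without a test since it met the level rule through p53+/+ libraries).

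Control cells of the 2 lines differed in 31 lincRNAs that were higher in p53-/- SCR cells (29%; 36.7% of all genes) and 18 that were lower (16.8%; 26.6% of all genes), with a median log2 difference of 0.09 against 0.06 for all genes. Genes that would miss the level rule without 1 of the lines made up 11 of the 31 and 9 of the 18, and for these the difference is a description. LINC01694 had 4.04, 4.02 and 4.08 FPKM in p53-/- SCR cells, against 0.177, 0.194 and 0.150 in p53+/+ SCR cells, a 23.3-fold ratio of means. LINC02458 showed the reverse, with 0.795, 0.578 and 0.997 FPKM in p53-/- SCR cells, against 3.95, 3.91 and 4.03 in p53+/+ SCR cells. Neither gene had a library of one line within the range of the other.

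Of the genes that reached 1 FPKM in both lines, LINC02595 had 3.68, 3.12 and 3.03 FPKM in p53-/- SCR cells, against 1.51, 0.535 and 0.263 in p53+/+ SCR cells (log2 difference 1.33 ± 0.193, SE, adjusted p = 7.10e-05). LINC00941 was 2.73-fold higher in p53-/- SCR cells (1.06 ± 0.073, SE, adjusted p = 1.26e-07), and LINC02870 2.62-fold (1.04 ± 0.173, SE, adjusted p = 0.000205). LINC01089, also called LIMT and known as a suppressor of invasion in mammary cells, had 4.51, 4.53 and 4.27 FPKM in p53-/- SCR cells, against 1.70, 1.83 and 2.02 in p53+/+ SCR cells (0.93 ± 0.068, SE, adjusted p = 1.87e-07). LINC01278 was 1.61-fold higher in p53-/- SCR cells (0.53 ± 0.080, SE, adjusted p = 9.55e-05), and LINC00673 1.42-fold (0.45 ± 0.050, SE, adjusted p = 7.52e-06). None of these 6 had overlapping control libraries. Depletion left LINC01089 at 98.8% of control in p53-/- cells and at 79.5% in p53+/+ cells, so the gap between lines persisted. The gene body of LINC01089 overlaps that of the coding gene SETD1B, so its values are uncertain. SETD1B averaged 8.20 ± 0.233 FPKM in p53-/- SCR and 4.75 ± 0.081 in p53+/+ SCR cells (SD, n = 3 each). The control difference of SETD1B was 0.68 (adjusted p = 7.62e-08 in limma), and whether both genes share reads was not tested.

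On the lower side, LINC00476 had 0.492, 0.499 and 0.539 FPKM in p53-/- SCR cells, against 2.49, 1.73 and 1.61 in p53+/+ SCR cells (-0.95 ± 0.093, SE, adjusted p = 2.37e-06). LINC00173 differed by -0.70 ± 0.098 (SE, adjusted p = 5.29e-05), LINC00482 by -0.55 and LINC02832 by -0.37. All 4 also rose with depletion in p53-/- cells. That comparison uses the same p53-/- SCR libraries, so the 2 sets of values are not independent. LINC01106, LINC01002 and LINC00174 differed by -0.45, -0.31 and -0.19, of which LINC01106 and LINC01002 share near-identical stretches with other genes (LINC01123 and FAM157A). The call on LINC00174 ended without p53-/- SCR replicate 2 or p53+/+ SCR replicate 3 (up to 0.10).

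**Figure D4:**
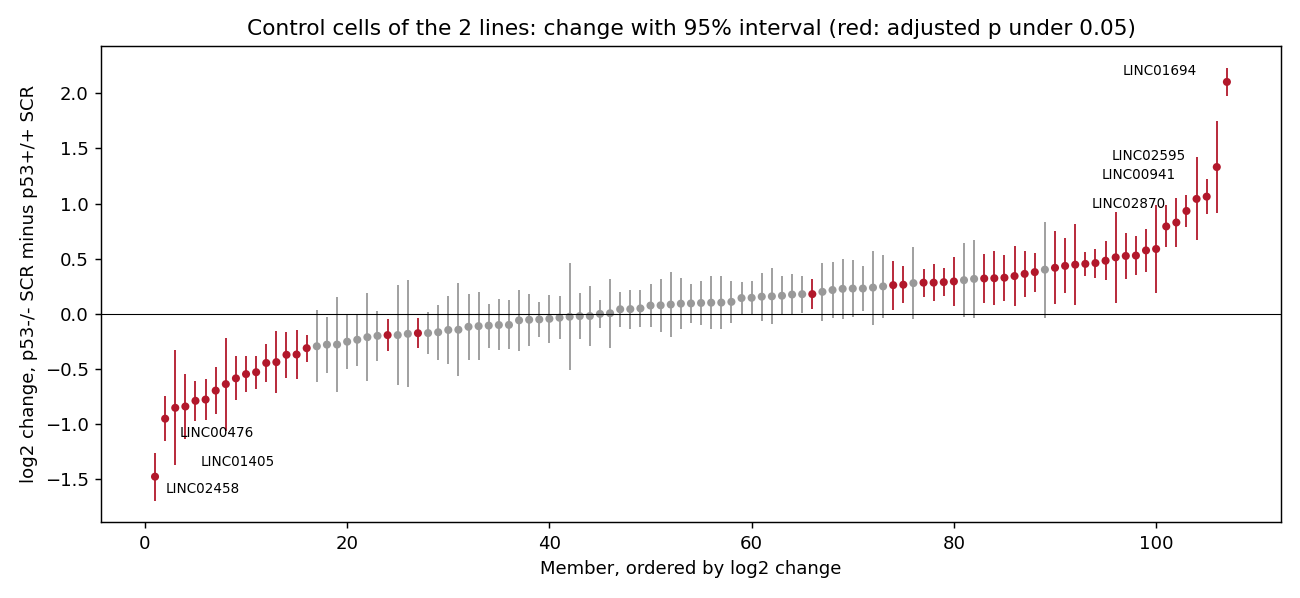
Log2 difference between control cells, p53-/- SCR minus p53+/+ SCR on log2(FPKM + 1), for each lincRNA with its 95% interval, ordered by size (red where the adjusted p was under 0.05). LINC01694 stands highest at 2.10 and LINC02458 lowest at -1.48, both inside the level rule through 1 line.

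The remaining genes that reached 1 FPKM in 1 line were LINC01098, LINC00944, LINC01311, LINC02434 and LINC01186 in p53-/- cells, with LINC00326, LINC00622, LINC01426 and LINC02321, and LINC01719, LINC00861, LINC01273, LINC02732, LINC00640 and LINC02846 in p53+/+ cells, with LINC02313. LINC01098 averaged 1.61 ± 0.098 FPKM in p53-/- KD and 1.63 ± 0.173 in p53-/- SCR cells, against 0.474 ± 0.151 in p53+/+ KD and 0.520 ± 0.073 in p53+/+ SCR cells (SD, n = 3 each). LINC02732 showed the opposite, at 0.472 ± 0.084 in p53-/- KD and 0.319 ± 0.031 in p53-/- SCR cells, against 1.33 ± 0.245 in p53+/+ KD and 1.26 ± 0.103 in p53+/+ SCR cells (SD, n = 3 each). Neither passed the test for depletion in either line. LINC01719, at 1 FPKM or more in p53+/+ SCR libraries alone, averaged 0.503 ± 0.108 FPKM in p53-/- KD, 0.769 ± 0.082 in p53-/- SCR, 0.862 ± 0.038 in p53+/+ KD and 2.06 ± 0.274 in p53+/+ SCR cells (SD, n = 3 each). LINC02321 averaged 1.22 ± 0.173 FPKM in p53-/- KD and 0.494 ± 0.049 in p53-/- SCR cells, and 0.356 ± 0.158 in p53+/+ KD and 0.191 ± 0.053 in p53+/+ SCR cells (SD, n = 3 each).

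Several lincRNAs of interest in cancer did not pass the test for depletion in either line. LINC00460, often raised in epithelial tumours, averaged 4.66 ± 0.171 FPKM in p53-/- KD and 3.75 ± 0.989 in p53-/- SCR cells, and 3.88 ± 0.168 in p53+/+ KD and 4.11 ± 0.770 in p53+/+ SCR cells (SD, n = 3 each). Its changes had 95% intervals from -0.02 to 0.58 in p53-/- and from -0.36 to 0.25 in p53+/+ cells. LINC00963 changed by 0.20 in p53-/- (95% interval -0.0017 to 0.40) and 0.08 in p53+/+ cells (-0.11 to 0.28). LINC00513, reported in lupus to favour interferon signalling, changed by 0.15 in p53-/- (95% interval -0.02 to 0.32) and -0.07 in p53+/+ cells (-0.24 to 0.10), and LINC02210 by 0.23 (-0.07 to 0.54) and 0.07 (-0.23 to 0.38). The gene body of LINC00513 overlaps that of LINC-PINT, so its values are uncertain. LINC-PINT rose by 0.43 in p53-/- (adjusted p = 0.00588 in limma) and 0.32 in p53+/+ cells (adjusted p = 0.0274 in limma). LINC00662 did pass in p53-/- cells, with a rise of 0.25 (adjusted p = 0.0308), a call that ended without KD replicate 2 or 3 or SCR replicate 2 or 3 (up to 0.117).

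Neighbouring coding genes were set beside the lincRNAs, by RefSeq positions. A coding gene lay within 100 kb of 86 lincRNAs, and 55 of these neighbours were tested. Across pairs Spearman's rho of the log2 changes was 0.13 in p53-/- cells, 0.08 in p53+/+ cells and 0.08 between controls, a description over genes that share libraries. LINC01234 fell with RBM19, an RNA-binding protein of ribosome assembly, which changed by -0.34 in p53-/- and -0.14 in p53+/+ cells. LINC00173 rose with MAP1LC3B2, a gene of the autophagy protein LC3 family, which changed by 0.96 and 0.99. LINC02832 rose in both lines, and SLC4A3, an anion exchanger, changed by 0.87 in p53+/+ cells and by 0.09 in p53-/- cells (adjusted p = 0.306). In contrast, LINC00673 rose in p53-/- cells where SLC39A11, a zinc transporter, changed by -0.39 (-0.21 in p53+/+ cells). LINC00941 fell in both lines, and CAPRIN2 changed by 0.17 in p53-/- cells (adjusted p = 0.0549) and 0.37 in p53+/+ cells.

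Other long noncoding RNAs, from a list of 45 of which 33 met the level, moved in both directions. In p53-/- cells 9 rose (27.3%; 28.9% of all genes) and 8 fell (24.2%; 29.9%). In p53+/+ cells 13 rose (39.4%; 28.5%) and 14 fell (42.4%; 32.2%). Between controls 14 were higher (42.4%; 36.7%) and 11 lower (33.3%; 26.6%) in p53-/- SCR cells. UCA1, an RNA raised in bladder and colon tumours, averaged 3.55 ± 0.30 FPKM in p53-/- KD and 5.52 ± 0.762 in p53-/- SCR cells, and 8.45 ± 0.307 in p53+/+ KD and 22.5 ± 0.847 in p53+/+ SCR cells (SD, n = 3 each). MIR22HG, host of miR-22, rose by 0.94 in p53-/- and 0.77 in p53+/+ cells. MIR34AHG, host of the p53 target miR-34a, averaged 0.499 ± 0.058 FPKM in p53-/- SCR and 2.28 ± 0.022 in p53+/+ SCR cells (SD, n = 3 each). LINC-PINT, which overlaps LINC00513, went the other way, at 2.99 ± 0.129 FPKM in p53-/- SCR and 1.82 ± 0.451 in p53+/+ SCR cells (SD, n = 3 each). PURPL and PANDAR, which missed the level, averaged 0.795 and 0.207 FPKM in p53-/- SCR and 0.488 and 0.107 in p53+/+ SCR cells. Any part of p53 in these differences was not tested.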

How the data were processed

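Poly(A)-selected RNA of 12 HCT116 libraries was read on a HiSeq platform, per the labels and design text. The authors deposited 1 table of gene symbols by library with no unit in its header. Its values were read as FPKM, since they are not whole numbers and are scaled for length, and the deposited columns sum to between 348822 and 372821. Per the submitters' processing notes the genome build was hg19. For the aligner, counter and annotation nothing is given in the sources used here, and the depth is unknown, so no counting interval is given. Columns with the prefix KO were taken as p53-/- cells. A check of the genotype labels is not reported here.

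The 13728 genes that reached 1 FPKM in 3 or more libraries were fitted on log2(FPKM + 1), with a pseudocount of 1, in limma 3.58.1 (R 4.3.3, trended variance, 1 mean per group, 8 residual degrees of freedom), after a check on simulated data. P-values were adjusted by Benjamini-Hochberg over all genes, threshold 0.05. The members and lists were chosen with earlier results of these data known. Named genes were LNCAROD, the 8 highest means, up to 6 rises and 6 falls per comparison among calls whose highest group averaged 2 FPKM or more and whose libraries did not overlap, a list with known roles, genes at the edge of the level rule and genes that reached it in 1 line. Copies were sought with blastn 2.17.0. The alternatives were a pseudocount of 0.1, no filter, TMM-type factors from the published formula, mitochondrial genes left out, fits of the compared groups alone, a replicate block and leaving out each library.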

Additional observations from a re-analysis of the deposited data

Results flagged for a closer look

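Among the named lincRNAs, some of which were named for a call in this very comparison, 19 passed limma's test of the difference between the lines' depletion effects (p53-/- minus p53+/+, log2(FPKM + 1), adjusted over all genes), which called 16.7% of all genes as higher and 16.2% as lower. The count is therefore no result about the lincRNAs. The effect was higher in p53-/- cells for LINC00476 (1.31), LINC00857 (0.58), LINC01138 (0.51), LINC02331 (0.49), LINC02832 (0.44), LINC00173 (0.40) and LINC00673 (0.28). It was lower for LINC00941 (-0.47), LINC01128 (-0.47), LINC02700 (-0.35) and LINC00839 (-0.30).

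For LINC00944 (0.54), LINC01719 (0.48), LINC02458 (0.49), LINC02321 (0.39), LINC00326 (-0.71), LINC02313 (-0.69), LINC01405 (-1.17) and LINC01694 (-0.25) the difference is given as a value alone, because these genes would miss the level rule without 1 group or 1 line. LINC02331 had 2.69, 3.48 and 3.18 FPKM in p53-/- KD cells, against 2.03, 2.29 and 2.87 in p53-/- SCR cells, and 1.33, 1.48 and 1.33 in p53+/+ KD cells, against 2.0, 1.53 and 1.76 in p53+/+ SCR cells. Its groups overlapped in p53-/- cells and did not in p53+/+ cells. LINC02700 had 1.86, 1.67 and 1.61 FPKM in p53-/- KD cells, against 1.30, 1.37 and 1.67 in p53-/- SCR cells, and 2.63, 2.44 and 2.66 in p53+/+ KD cells, against 1.63, 1.41 and 1.57 in p53+/+ SCR cells. LINC00944 had 1.78, 1.97 and 1.43 FPKM in p53-/- KD cells, against 0.895, 0.958 and 1.0 in p53-/- SCR cells, and every p53+/+ library lay under 0.6. The p53-/- SCR libraries enter the differences of all 19 genes, and groups of 3 were too small for a search for outlying libraries.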

How the results depend on the processing

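No called lincRNA changed direction in either depletion or between controls under the alternatives, and calls held under all of them for 37 of 49 in p53-/- depletion, 27 of 42 in p53+/+ depletion, 8 of 24 for the difference of effects and 35 of 49 between controls. The difference of effects called 24 (16 higher, 8 lower), but 15 (10 and 5) with a pseudocount of 0.1 and 9 (5 and 4) with no filter on low values, and between 14 and 22 when single libraries were left out (7 to 14 higher, 7 to 9 lower). Its lowest count came without p53-/- KD replicate 1, and 10 were higher without p53-/- SCR replicate 1 or p53+/+ SCR replicate 1. LINC01694 turned to 0.0135 with a pseudocount of 0.1 (adjusted p = 0.965). Leaving out single libraries gave 41 to 52 calls in p53-/- and 34 to 44 in p53+/+ depletion, and 42 to 51 between controls. The share of LINC symbols in summed FPKM of p53+/+ cells, which differed by -0.000684 percentage points with depletion, turned to 0.00526 without mitochondrial genes and ranged from -0.0021 to 0.000177 when single libraries were left out (0.000177 without KD replicate 1, 0.000152 without SCR replicate 1). Without mitochondrial genes all genes split into 4944 higher and 3419 lower in p53+/+ depletion (3916 and 4418 as deposited), and 1830 and 2769 for the difference of effects (2286 and 2225). Same-numbered libraries correlated between -0.10 and 0.16 in their deviations, so the numbers were not taken as pairs, and the replicate block gave 49, 41, 19 and 52 calls in p53-/- depletion, p53+/+ depletion, the difference and the controls. The p53-/- share difference of 0.00461 became 0.0103 without mitochondrial genes, 0.00158 over the 107 genes alone and 0.00304 without p53-/- SCR replicate 2. The depth of the libraries is unknown, and values near 1 FPKM limit most of these genes.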
